A study of Mus musculus with 12 samples.

Results

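The genes described here are 5 members of the mouse Clca family, Clca2, Clca3a1, Clca3a2, Clca4a and Clca4b, taken by name after deposited transcript values had been summed per gene. They are 5 of 48448 genes of the table, and all 5 are among the 16970 genes that reached an FPKM of 1 in at least 3 libraries. FPKM scales fragment counts to transcript length and library size, so levels can be compared between genes. The genes were selected on measured values, namely the FPKM of tumour against adjacent libraries, in which Clca4b had been seen to be higher while other genes of absorptive colonocytes were lower. The difference between tumour and adjacent tissue is therefore given for these genes as a description, with no test, whereas genotype was not used in the choice and is tested.

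Colon of C57BL/6 mice was used, in a model of cancer that follows colitis, with 3 libraries in each of 4 groups. Adjacent tissue and tumours came from Synbindin flox mice, the controls, which carry the floxed allele and are called flox here, and from Synbindin ΔIEC mice, in which the gene is deleted in intestinal epithelial cells. Synbindin is the protein encoded by Trappc4, part of a complex that tethers transport vesicles. The sources used here give neither the Cre line, nor the agents that induced the tumours, nor the sex and age of the mice. All 4 groups went through the cancer model, so no group stands for an untreated colon.

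Trappc4 ranged from 16.8 to 17.3 FPKM in flox and from 10.2 to 12.6 FPKM in ΔIEC adjacent libraries, and from 17.5 to 20.9 and from 9.91 to 12.7 FPKM in the tumours, so each ΔIEC library was below each flox library of its tissue. Of 12 Wnt target genes, which mark tumours of this kind, 12 rose in flox and 11 in ΔIEC tumours, where limma called 16.6% and 13.9% of all tested genes higher. Both tissues held epithelial RNA, with Krt8 means of 1147.6 to 2185.8 FPKM over the groups. Of 12 general epithelial markers, limma called 1 higher and 9 lower in flox and 1 and 3 in ΔIEC tumours. Over all tested genes it called 19.7% and 15.5% lower. With libraries rescaled on protein-coding genes, 3 of the markers fell in flox and 1 in ΔIEC tumours. Only protein-coding genes were tested in that setting. Of them 1481 and 1265 were called lower, against 3346 and 2624 of all tested genes without rescaling. Leukocyte markers summed to 216.7 to 1156.3 FPKM in adjacent and 194.1 to 737.0 FPKM in tumour libraries, and fibroblast markers to 53.8 to 298.8 and 296.1 to 621.4 FPKM. Of the tested markers of blood endothelium, smooth muscle, fibroblasts and leukocytes, 7 of 10, 0 of 9, 4 of 9 and 1 of 10 rose in flox tumours and 0, 0, 1 and 1 in ΔIEC tumours, and none fell. Against the same 16.6% and 13.9%, the smooth muscle and leukocyte counts were below the background in both genotypes, as were those of blood endothelium and fibroblasts in ΔIEC tumours. Without ΔIEC adjacent 1, limma called 299 genes between the genotypes in adjacent tissue, against 0 with it. By these marker sums it lay near the flox adjacent libraries and apart from ΔIEC adjacent 2 and 3. Leukocyte markers summed to 216.7 FPKM in it, to 1156.3 and 1114.5 FPKM in ΔIEC adjacent 2 and 3, and to 223.2 to 298.7 FPKM in flox. Fibroblast markers summed to 53.8, 298.8 and 240.5 FPKM, against 61.3 to 206.5 FPKM in flox. The part of tissue make-up in the 299 calls was not tested. No read counts were analysed here, so sequencing depth is unknown and no counting interval is given.

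Clca proteins are called calcium-activated chloride channel regulators. They are not channels themselves: they are made as precursors with a metalloprotease domain, which cuts the protein, and a von Willebrand factor type A domain, and the best known of them, Clca1, raises chloride currents carried by the channel Ano1. In the intestine Clca1 is a secreted protein of goblet cells and of mucus. Clca4a is known from enterocytes, Clca2 from keratinocytes and other stratified epithelia, and Clca3a1 from lymphatic endothelium, where it takes part in cell adhesion.

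The family lies in 1 cluster on chromosome 3 (GRCm38), from 144729677 to 145099443, over 369.8 kb, with all 8 genes on the minus strand. In order of coordinate these are Clca3a1, Clca3a2, Clca3b, the pseudogene Clca4c-ps, Clca4b, Clca4a, Clca1 and Clca2. Clca4b (ENSMUSG00000074195) spans 144910921 to 144932529 and Clca4a (ENSMUSG00000068547) spans 144952480 to 144975045. Clca3a2 (ENSMUSG00000028262) spans 144796559 to 144819494, Clca3a1 (ENSMUSG00000056025) spans 144729677 to 144760977 and Clca2 (ENSMUSG00000036960) spans 145070263 to 145099443.

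Clca4a and Clca4b are near copies, and both have a coding sequence of 2775 bases with 96.0% identity. The start of each coding sequence is shown because the pair had opposite tumour patterns and reads have to be told apart by differences such as these. The first 90 coding bases of the annotated transcripts Clca4a-201 and Clca4b-201 (GENCODE M21, GRCm38) follow, with the 4 positions that differ in capitals.
Clca4a: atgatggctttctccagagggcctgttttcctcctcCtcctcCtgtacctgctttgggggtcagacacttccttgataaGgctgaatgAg
Clca4b: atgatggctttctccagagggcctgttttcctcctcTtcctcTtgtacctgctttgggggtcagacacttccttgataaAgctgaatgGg
Clca3a1 and Clca3a2 were as close, with 97.1% identity over 2706 coding bases, and Clca3a2 and the cluster gene Clca3b shared 87.0%. Other pairs of the family shared 66.0% to 71.0%, apart from Clca3a1 and Clca3b with 87.1%. Of all 50-base windows of the main transcript, 24.8% in Clca4b, 37.1% in Clca4a, 25.9% in Clca3a2 and 24.9% in Clca3a1 occurred without a mismatch in at least 1 other Clca gene. Clca2 and Clca1 had no such window. The sources used here do not say how reads that match several copies were assigned, so the levels of these 4 genes carry an uncertainty that the spread between libraries does not show.

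The RefSeq promoter table (GRCm38.p6) held 4 of the 5 genes, and Clca4a was not among them. The 250 bases before the start of Clca4b (chr3:144932530-144932779, minus strand) are shown because this gene had the largest difference between tissues of the 5. The capitals mark 1 match to TTTATG, the core of the site bound by CDX factors of the intestine, and 2 to TATAAA, read on the reverse strand as TTTATA, at -166 and -119 from the start.
Clca4b: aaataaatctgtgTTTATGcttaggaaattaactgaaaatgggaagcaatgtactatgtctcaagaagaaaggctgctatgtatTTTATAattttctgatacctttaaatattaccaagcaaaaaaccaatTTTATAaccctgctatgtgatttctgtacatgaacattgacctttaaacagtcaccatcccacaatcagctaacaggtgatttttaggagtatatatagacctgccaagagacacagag
TTTATG occurred in 10.8% of 32851 promoters of the table and TATAAA in 12.4%. The E-box CANNTG also occurred upstream of Clca4b, in lower case here, and in 66.2% of all promoters. The TCF/LEF core CTTTGA and the HNF4 half-site CAAAGT did not occur in this window, and 13.8% and 12.6% of all promoters hold them. These are matches to letters on both strands in windows of 250 bases, with no overlap between matches of different motifs, and no binding was measured.

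Clca4b was low and variable in adjacent tissue and high in tumours. Its FPKM was 47.4, 32.8 and 5.62 in flox adjacent libraries 1, 2 and 3 and 11.3, 6.92 and 104.0 in the ΔIEC adjacent libraries. In tumours it was 310.6, 88.1 and 491.3 in flox and 452.1, 171.0 and 421.3 in ΔIEC mice. Within a genotype each tumour library was above each adjacent one, although ΔIEC adjacent 3 was above flox tumour 2. The means were 28.6 ± 21.2 FPKM (SD, n = 3) in flox adjacent, 40.8 ± 54.8 in ΔIEC adjacent, 296.7 ± 202.0 in flox tumour and 348.1 ± 154.2 in ΔIEC tumour tissue. In this order of levels, the 2 adjacent groups lay within their spread of each other, as did the 2 tumour groups. The tumour mean was 10.4 times the adjacent mean in flox and 8.54 times in ΔIEC mice, and the difference in mean log2(FPKM + 1) was 3.43 and 3.88. Tumour libraries were all above adjacent ones in both genotypes for 16.1% of tested genes, and the choice of Clca4b used this contrast, so nothing is read from its place among them.

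Among 21774 protein-coding genes ordered by FPKM, Clca4b ranked between 614 and 8775 in adjacent libraries and between 85 and 620 in tumours. Adjacent and tumour libraries 1, 2 and 3 of the flox and 2 and 3 of the ΔIEC mice share a code in the labels, which do not say that it stands for a mouse. Within those 5 codes Clca4b was 6.55, 2.68, 87.4, 24.7 and 4.05 times higher in the tumour library, so the ratio varied by far more than the mean shows. The range came mostly from the adjacent side, whose highest library was 104.0 and lowest 5.62 FPKM.

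Clca4a, the near copy known from enterocytes, had the opposite pattern. Its FPKM was 188.8, 233.6 and 112.4 in flox adjacent and 221.0, 172.8 and 162.5 in ΔIEC adjacent libraries. In tumours it was 32.9, 20.3 and 68.8 in flox and 100.3, 37.7 and 73.0 in ΔIEC mice. All 6 adjacent libraries were above all 6 tumour libraries. The means were 178.3 ± 61.3 and 185.4 ± 31.2 FPKM (SD, n = 3) in adjacent tissue and 40.7 ± 25.1 and 70.3 ± 31.4 FPKM in tumours, flox first, and the genotypes lay within their spread of each other in adjacent tissue and overlapped in tumours. Tumours thus held 22.8% of the adjacent level in flox and 37.9% in ΔIEC mice, with differences of -2.22 and -1.48 in mean log2(FPKM + 1). Tumour libraries were all below adjacent ones in both genotypes for 18.0% of tested genes, and nothing is read from that share here either. In whole-tissue RNA, fewer cells of a type and less RNA per cell cannot be told apart.

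**Figure D1:**
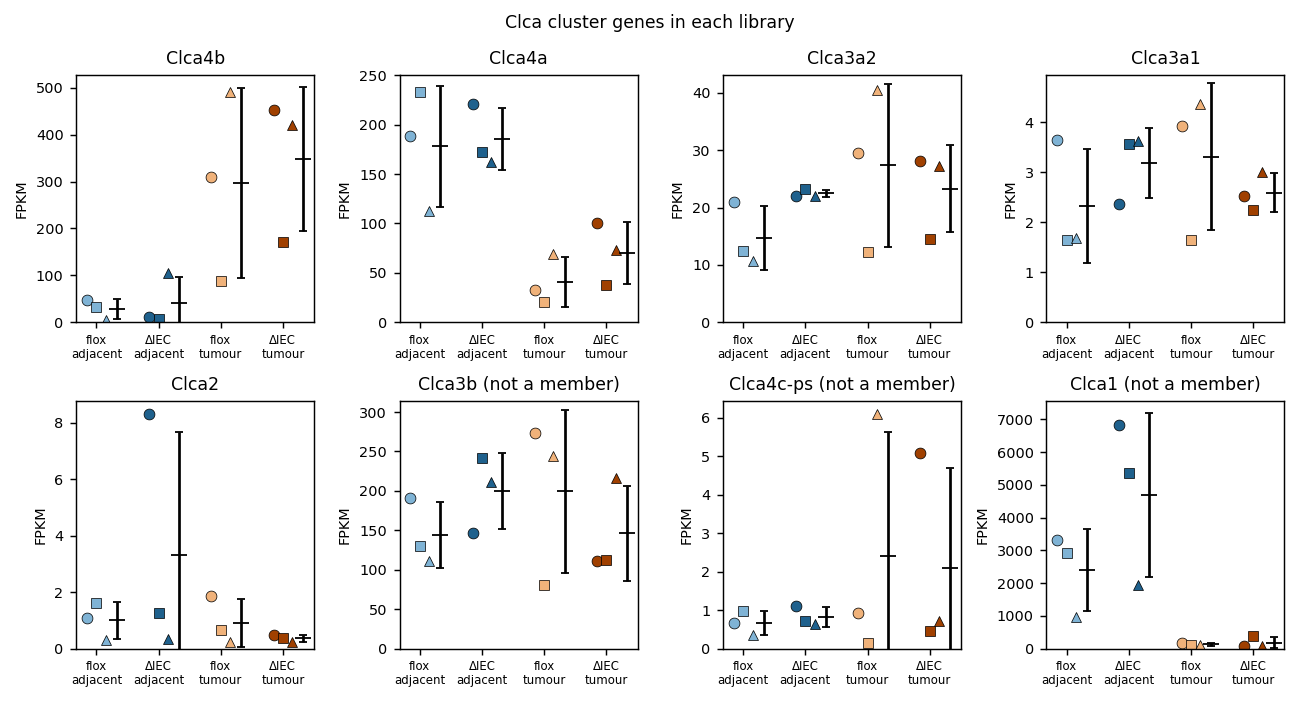
FPKM of the 5 Clca genes and of the 3 other genes of the cluster in each library (circle for replicate 1, square for 2, triangle for 3), beside the mean ± SD for the 3 libraries of a group (horizontal mark and bars, ended at 0 where the SD is larger than the mean). Each panel has its own linear axis from 0; Clca4b lies between 88.1 and 491.3 in tumours and Clca4a between 20.3 and 100.3, against 112.4 to 233.6 for Clca4a in adjacent tissue.

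The 2 genes exchanged places as the main part of the 5. Clca4a made up 80.3% ± 7.28 (SD, n = 3) of their summed FPKM in flox adjacent and 74.0% ± 16.1 in ΔIEC adjacent tissue, but 12.2% ± 3.97 and 15.9% ± 1.78 in tumours. Clca4b made up 11.3% ± 6.9 and 14.4% ± 18.4 in adjacent tissue and 78.3% ± 5.79 and 77.8% ± 2.32 in tumours. The sum itself was 224.9 ± 82.3 and 255.2 ± 43.3 FPKM in adjacent tissue and 369.0 ± 241.2 and 444.7 ± 191.8 FPKM in tumours, so it changed by less than its parts. The summed level of the pair overlapped between the tissues, with 118.0 to 266.5 FPKM in adjacent and 108.4 to 560.1 FPKM in tumour libraries.

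**Figure D2:**
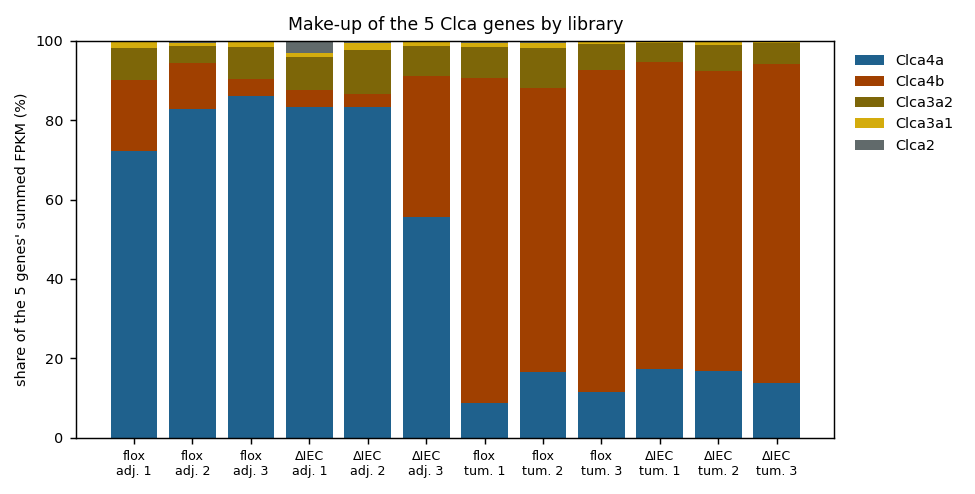
Share of the summed FPKM of the 5 genes that each gene takes, in percent, for each of the 12 libraries (adj. is adjacent, tum. is tumour). Clca4a takes 55.5% to 86.0% of each adjacent bar and Clca4b takes 71.6% to 82.0% of each tumour bar.

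The ratio of Clca4b to Clca4a within a library does not depend on how libraries are scaled. It was 0.251, 0.141 and 0.05 in flox adjacent and 0.0513, 0.04 and 0.64 in ΔIEC adjacent libraries. In tumours it was 9.43, 4.34 and 7.14 in flox and 4.51, 4.54 and 5.77 in ΔIEC mice. The lowest tumour ratio, 4.34, was above the highest adjacent ratio, 0.64. Over the 12 libraries the 2 genes had a Pearson correlation of -0.54 in log2(FPKM + 1). Once group means were taken off, the correlation was 0.56: the libraries of a group that were high in one tended to be high in the other. Flox tumour 2 and ΔIEC tumour 2 were the lowest tumour libraries of their genotype for both genes. The pair shares 21.0% of the 50-base windows of Clca4b, and the part of shared reads in the second correlation was not tested.

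**Figure D3:**
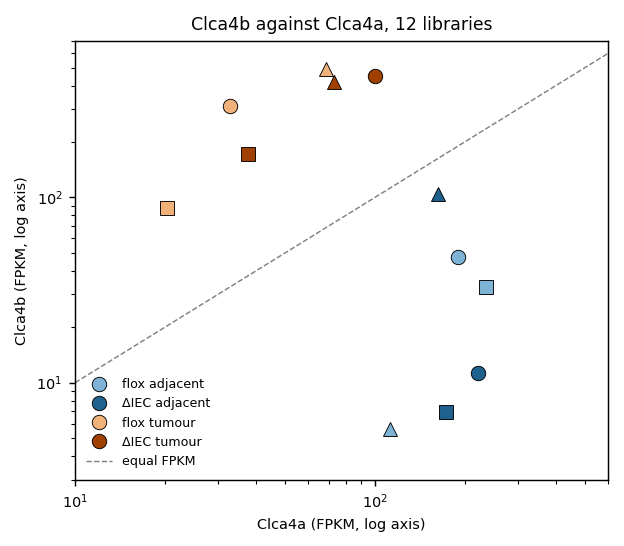
Clca4b against Clca4a in FPKM on log axes, 1 point for each of the 12 libraries (colour is the group; circle for replicate 1, square for 2, triangle for 3), with a dashed line at equal FPKM. All 6 tumour libraries lie above the line and all 6 adjacent libraries below it, with ΔIEC adjacent 3 nearest to the line at a ratio of 0.64.

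The adjacent libraries with the most Clca4b also held the most RNA of posterior Hox genes, which mark position along the gut. The 9 posterior genes summed to 192.7, 42.2 and 10.2 FPKM in flox adjacent 1, 2 and 3, to 52.5, 66.5 and 132.7 FPKM in the ΔIEC adjacent libraries, and to between 140.5 and 183.8 FPKM in tumours. The 2 adjacent libraries with the most Clca4b, ΔIEC 3 and flox 1, were also the 2 with the highest posterior sum, and flox 3 was lowest in both. Hoxb13 was 120.5 FPKM in flox 1 and 102.9 FPKM in ΔIEC 3, against 1.56 to 39.5 FPKM in the other 4. Hoxd13 was 31.0 and 2.67 FPKM in the same 2 libraries and at most 0.137 FPKM in the other 4, whereas tumours held 42.5 to 69.6 FPKM. The 13 Hox genes with more anterior limits summed to 56.2 and 47.9 FPKM in these 2 libraries, to 64.3 to 160.2 FPKM in the other adjacent libraries, and to 28.6 to 41.3 FPKM in tumours. Of the posterior genes tested, 5 of 8 rose in tumours of each genotype and 0 fell, at a background of 16.6% and 13.9% called higher. The 5 were Hoxd9, Hoxd10, Hoxd11, Hoxd12 and Hoxd13 in both, whereas Hoxa11, Hoxa13 and Hoxb13 did not pass. The order was not exact, since flox adjacent 2 had 32.8 FPKM of Clca4b with the second lowest posterior sum. The part of position along the colon in the Clca4b values was not tested.

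Clca3a2 was present in all 12 libraries at a moderate level. Its FPKM was 21.0, 12.4 and 10.6 in flox adjacent and 22.1, 23.3 and 22.1 in ΔIEC adjacent libraries, and 29.5, 12.3 and 40.5 in flox and 28.2, 14.6 and 27.2 in ΔIEC tumours. The tissues overlapped in both genotypes. The tumour mean was 1.87 times the adjacent mean in flox and 1.04 times in ΔIEC mice, with differences of 0.77 and -0.01 in mean log2(FPKM + 1), the second of which had the other sign when libraries were rescaled on protein-coding genes (0.29) or quantile normalized (0.11) and ranged from -0.17 to 0.29 with each library left out. Of its 4 annotated transcripts, Clca3a2-201 held 37.0% of the gene's FPKM and the intron-retaining Clca3a2-202 held 23.5%.

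Clca3a1, the member known from lymphatic endothelium, was low throughout. Its FPKM was 3.65, 1.65 and 1.68 in flox adjacent, 2.37, 3.56 and 3.62 in ΔIEC adjacent, 3.93, 1.64 and 4.36 in flox tumour and 2.52, 2.25 and 3.0 in ΔIEC tumour libraries. All 4 groups overlapped, and the highest library was 2.66 times the lowest. Lymphatic markers summed to 7.77 to 64.2 FPKM in adjacent and 138.2 to 172.3 FPKM in tumour libraries. Of the 7 markers, 6 rose in flox and 2, Prox1 and Pdpn, in ΔIEC tumours, against 16.6% and 13.9% of all tested genes. Much of that sum was Prox1, a transcription factor that is also on the Wnt target list, with means of 94.3 ± 7.54 and 62.8 ± 24.8 FPKM in flox and ΔIEC tumours. Lyve1, a receptor of lymphatic vessels, was 8.35 ± 2.01 and 9.94 ± 2.95 FPKM there. By library it was 0.729 to 6.95 FPKM in adjacent tissue and 6.25 to 13.3 FPKM in tumours. Flox adjacent 1 and ΔIEC adjacent 2 and 3 had the most Clca3a1 of the adjacent libraries. They also had the highest adjacent lymphatic sums, 31.6, 64.2 and 60.1 FPKM. Among tumours, flox 2 had the least Clca3a1 with a sum of 155.7 FPKM. The part of lymphatic cells in the Clca3a1 values was not tested.

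Clca2 was near the lower limit and reached 1 FPKM in 5 libraries. It was 1.09, 1.6 and 0.296 FPKM in flox adjacent, 8.3, 1.26 and 0.323 in ΔIEC adjacent, 1.86, 0.639 and 0.225 in flox tumour and 0.477, 0.364 and 0.239 in ΔIEC tumour libraries. ΔIEC adjacent 1 was far above the others, and 5.32 of its 8.3 FPKM came from the short non-coding transcript Clca2-202. Its main coding transcript Clca2-201 was 2.65 FPKM in that library and 0.126 to 1.66 FPKM in the other 11. The tumour difference was -0.10 in flox and -1.16 in ΔIEC mice, with overlap in both. The flox value had no stable sign: it was 0.11 when libraries were rescaled on protein-coding genes, 0.07 for the most abundant transcript alone, and -0.44 to 0.18 with each library left out. The ΔIEC value was -0.35 without ΔIEC adjacent 1 and -1.76 without ΔIEC adjacent 3. Keratinocyte markers were not high in the library with the most Clca2: their sum was 15.3 FPKM in ΔIEC adjacent 1, against 14.4 to 27.3 FPKM in adjacent libraries as a whole. In flox tumours 1 and 2 the markers summed to 615.7 and 451.6 FPKM, with Krt14 at 141.5 and 87.9 FPKM. Clca2 was 1.86 and 0.639 FPKM in these 2, its highest values among the tumour libraries. The other 4 tumour libraries held 43.2 to 71.4 FPKM of the markers and 0.225 to 0.477 FPKM of Clca2. The part of keratinocyte RNA in the Clca2 values was not tested.

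The cluster gene left out of the 5, the goblet cell gene Clca1, fell in tumours of both genotypes. Its means were 2397.4 ± 1264.7 FPKM (SD, n = 3) in flox and 4701.3 ± 2501.9 FPKM in ΔIEC adjacent tissue, against 125.2 ± 47.2 and 182.4 ± 175.9 FPKM in tumours. The log2 difference was -4.12 (SE 0.719, adjusted p = 0.00226 in limma) in flox and -4.91 (SE 0.719, adjusted p = 0.00183 in limma) in ΔIEC mice. Clca1 thus held 85.1% and 88.6% of the FPKM of the whole cluster in adjacent tissue and 21.5% and 24.5% in tumours, where Clca4b held 39.3% ± 11.5 and 44.2% ± 18.1. Clca4b exceeded Clca1 in 4 of 6 tumour libraries, by 1.73 to 5.59 times, and was below it in flox tumour 2 and ΔIEC tumour 2. Of 13 other goblet genes, 11 fell in flox and 13 in ΔIEC tumours, at a background of 19.7% and 15.5% of tested genes called lower.

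Clca3b and Clca4c-ps did not pass the test in either genotype. Clca3b was 110.9 to 241.8 FPKM in adjacent and 80.9 to 273.5 FPKM in tumour libraries, with differences of 0.32 (adjusted p = 0.608 in limma) in flox and -0.49 (adjusted p = 0.443 in limma) in ΔIEC mice. The pseudogene was at most 1.12 FPKM in all libraries except flox tumour 3, with 6.1 FPKM, and ΔIEC tumour 1, with 5.08 FPKM. Those 2 were also the highest tumour libraries of their genotype for Clca4b and for Clca4a, whose transcript shares 23.6% of its 50-base windows with the pseudogene. The part of reads that match both was not tested.

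Absorptive colonocyte genes were mostly lower in the tumours in which Clca4b was higher. Of 34 such genes, all of which were tested, limma called 28 lower and 0 higher in flox tumours and 24 lower and 0 higher in ΔIEC tumours. Over all tested genes 16.6% were called higher and 19.7% lower in flox and 13.9% and 15.5% in ΔIEC mice, 36.3% and 29.4% in all. The comparison with colonocyte genes is part of how Clca4b was chosen, so these counts are a description. The median difference of the 34 was -2.3 in flox and -2.11 in ΔIEC mice, against -0.01 and -0.03 over all tested genes. The highest values of the list were 0.54 and 0.64 for the sodium channel subunit Scnn1g, below the 3.43 and 3.88 of Clca4b.

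The largest falls of the list were those of the cytochrome Cyp2c55, with log2 differences of -8.08 (adjusted p = 0.00171) and -6.24 (adjusted p = 0.00787) in flox and ΔIEC tumours, the water channel Aqp8, with -5.57 and -5.55, and the carbonic anhydrase Car4, with -6.02 and -5.10, by limma. Clca4a, at -2.22 and -1.48, was close to the list median in flox and less lowered than it in ΔIEC tumours. The most abundant genes were Lypd8, an antimicrobial surface protein, at -1.45 (adjusted p = 0.033) and -0.89 (adjusted p = 0.168), Car1 at -4.83 (adjusted p = 0.00873) and -2.99 (adjusted p = 0.0694), the adhesion molecule Ceacam1 at -2.21 and -1.84, and the mucin Muc3. Muc3 was listed at 0 in flox adjacent 1 and at 1151.0 and 1344.0 FPKM in the other 2 flox adjacent libraries, so no fold is drawn from it. Besides Scnn1g, the least lowered genes were Scnn1b at -0.29 (adjusted p = 0.448) and 0.48 (adjusted p = 0.223) and the peptide gene Guca2b at -0.71 (adjusted p = 0.138) and -0.12 (adjusted p = 0.82).

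**Figure D4:**
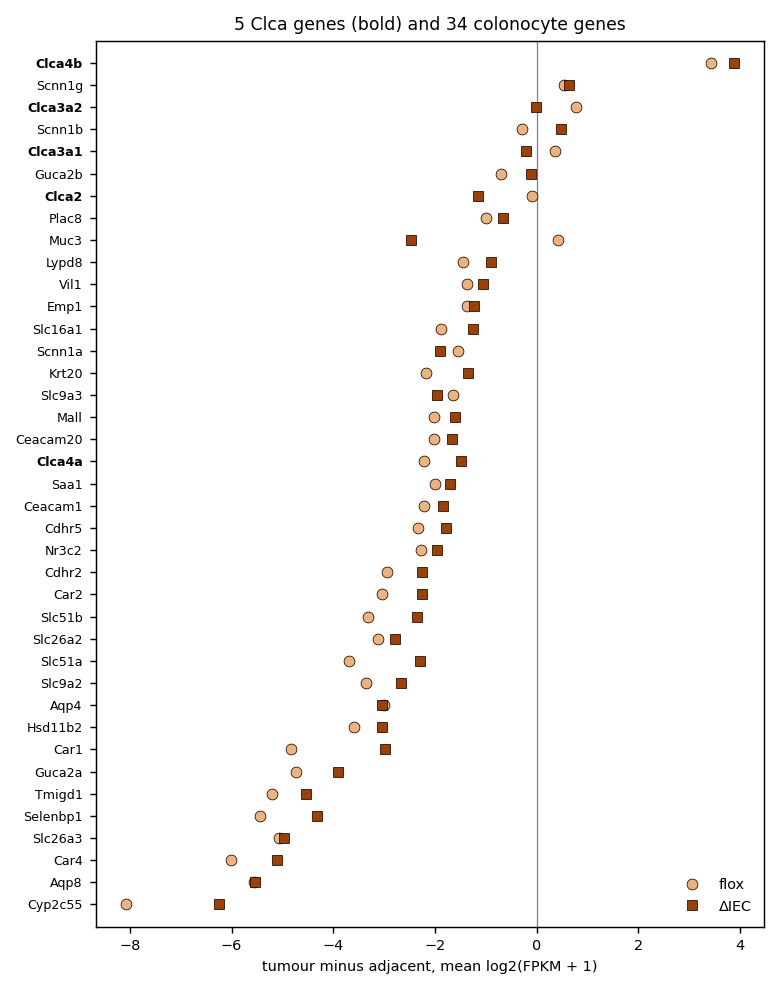
Difference in mean log2(FPKM + 1), tumour minus adjacent, for the 5 Clca genes (bold) and 34 colonocyte genes, in flox (circles) and ΔIEC mice (squares), ordered by the mean of the 2. Clca4b stands at 3.43 and 3.88, above the highest colonocyte gene Scnn1g (0.54 and 0.64), and Clca4a stands at -2.22 and -1.48 within the list.

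Genes of chloride transport, the process in which Clca proteins were first placed, changed in part. Of 23 genes for calcium-activated chloride channels and chloride secretion, 19 were tested, of which 1 rose and 7 fell in flox and 2 rose and 6 fell in ΔIEC tumours (limma). The background was 16.6% higher and 19.7% lower in flox and 13.9% and 15.5% in ΔIEC mice. Rescaled on protein-coding genes, 6 rose and 7 fell in flox and 2 rose and 6 fell in ΔIEC tumours. The background shares above are those without rescaling. Rescaled, only protein-coding genes were tested, and their number is not given here. Of them 5910 were called higher and 1481 lower in flox tumours, against 2817 and 3346 of all tested genes. In ΔIEC tumours these were 4168 and 1265, against 2357 and 2624. The median difference of the 19 was -0.11 and -0.21, and 0.32 and 0.02 after that rescaling. Ano1, the channel on which Clca1 acts, was 27.6 to 199.9 FPKM in adjacent and 62.0 to 128.0 FPKM in tumour libraries, with differences of 0.48 (adjusted p = 0.549) and -0.21 (adjusted p = 0.817). The chloride channel gene Cftr fell by 2.39 (adjusted p = 0.0049) and by 2.35 (adjusted p = 0.00728) on the log2 scale, from means of 40.9 and 37.9 FPKM to 8.27 and 7.65 FPKM. The chloride channel Clcn2 fell by 2.26 and 2.13, the anoctamin gene Ano7 by 2.23 and 2.21, and the sodium pump gene Atp1b1 by 1.16 and 0.94. The chloride transporter gene Slc26a9 rose by 1.18 and 1.21, from means of 0.104 and 0.00445 FPKM, but stayed at 1.64 and 1.44 FPKM in tumours. It passed the filter only through tumour libraries and was the 1 gene of the list called higher in flox tumours. Clcn3 differed by 0.46 (adjusted p = 0.071) and rose by 0.56 (adjusted p = 0.0409), and Ano6 differed by 0.83 (adjusted p = 0.0552) and 0.59 (adjusted p = 0.17). The potassium channel subunit Kcne3 was at -0.08 and 0.08.

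Apart from the Clca genes, of which Clca1 differed more, the tested genes inside the cluster or beside it had smaller differences than Clca4b. Of 34 annotated genes within 1 Mb on either side, 17 were tested, of which 2 rose and 2 fell in flox and 2 rose and 3 fell in ΔIEC tumours. Over all tested genes 16.6% rose and 19.7% fell in flox and 13.9% and 15.5% in ΔIEC tumours, so the counts of the neighbours were near the background. The setting rescaled on protein-coding genes tested only such genes. Among the neighbours these were 12, of which 5 rose and 1 fell in flox and 6 rose and 2 fell in ΔIEC tumours. The shares above do not apply to that setting. Over protein-coding genes it called 5910 higher and 1481 lower in flox tumours, against 2817 and 3346 of all tested genes without rescaling. In ΔIEC tumours it called 4168 and 1265, against 2357 and 2624. The neighbours that rose without rescaling were Hs2st1, by 0.63 and 0.65, and Ccn1, a matrix signalling protein, by 1.72 and 1.42. Ddah1 fell by 2.09 and 1.48 and Syde2 by 0.99 and 1.08, while 2410004B18Rik fell by 0.42 in ΔIEC tumours. The medians were 0.30 and 0.07. Inside the cluster, 5 of 6 other annotated genes were tested and 0 rose. Gm35066 fell by 0.89 and 0.81 and Gm16233 by 1.03 in flox tumours. Both overlap Clca4a, and the sources used here do not say whether strand was used in counting, so their reads and those of Clca4a may not be told apart.

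Between the genotypes, none of the 5 genes passed the test in either tissue. In adjacent tissue limma called 0 of 16970 genes (0.0%) at an adjusted p below 0.05, and 702 (4.14%) had an unadjusted p below 0.05. The ΔIEC minus flox difference was -0.03 (95% interval -2.41 to 2.36) for Clca4b, 0.11 (-0.92 to 1.13) for Clca4a, 0.64 (-0.26 to 1.54) for Clca3a2, 0.37 (-0.29 to 1.03) for Clca3a1 and 0.66 (-0.70 to 2.02) for Clca2, with adjusted p from 0.931 to 0.999. Clca3a2 was the 1 member whose groups did not overlap, with 3 of 3 ΔIEC adjacent libraries above the flox libraries, which also held for 2.56% of tested genes. The exact two-sided permutation test gave p = 0.1 for it, the smallest that 3 against 3 allows. Its unadjusted p in limma was 0.143.

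In tumours the widest separation by genotype was that of Clca4a. Its difference was 0.84 (95% interval -0.19 to 1.87), with an adjusted p of 1 in limma, an unadjusted p of 0.0984 and an exact permutation p of 0.2. The difference was 0.42 (-1.96 to 2.81) for Clca4b, -0.13 (-1.03 to 0.76) for Clca3a2, -0.20 (-0.87 to 0.46) for Clca3a1 and -0.40 (-1.76 to 0.96) for Clca2. All 5 genes overlapped between the genotypes here, whereas 6.77% of tested genes did not. limma called 0 genes (0.0%) and 317 (1.87%) had an unadjusted p below 0.05.

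The tumour difference was not shown to depend on genotype for any of the 5. The difference of the 2 tumour differences, ΔIEC minus flox, was 0.45 (95% interval -2.92 to 3.82) for Clca4b, 0.73 (-0.72 to 2.19) for Clca4a, -0.77 (-2.04 to 0.49) for Clca3a2, -0.57 (-1.51 to 0.36) for Clca3a1 and -1.06 (-2.98 to 0.86) for Clca2. limma called 0 genes (0.0%) for this interaction, with 448 (2.64%) at an unadjusted p below 0.05. With 3 libraries a group, a genotype difference of Clca4b within its wide intervals was not detectable. Clca3a1 had the narrowest intervals of the 5 in both tissues, on a scale that understates changes of low genes such as this one.

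**Figure D5:**
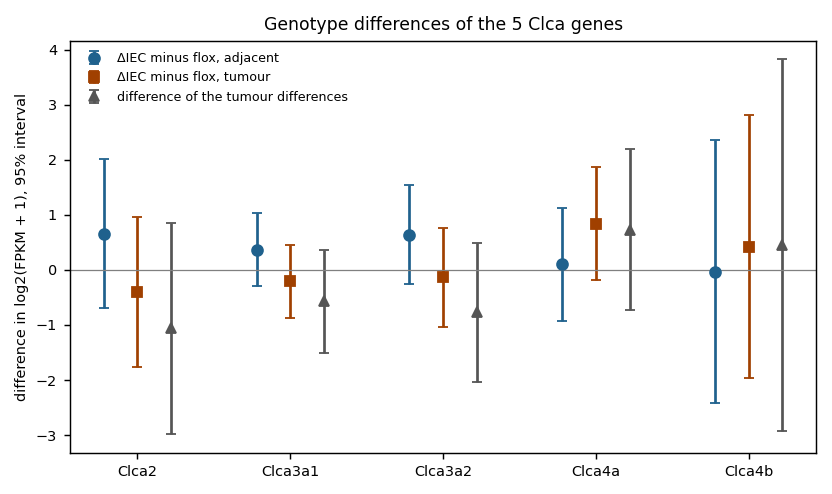
Differences in log2(FPKM + 1) with 95% intervals from limma for the 5 genes: ΔIEC minus flox in adjacent tissue (circles), in tumours (squares), and the difference of the 2 tumour differences (triangles), each from all 12 libraries. All 15 intervals include 0, and those of Clca4b are the widest.

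The genes whose levels followed each member most closely were sought among 9428 protein-coding genes with a mean of at least 5 FPKM, by Pearson correlation over the 12 libraries. Clca genes and genes with Gm or Rik names were left out of this search. The 12 points share the tissue groups and each library's composition, so the correlation within groups (deviations from group means) is given second. For Clca4b these were Gtdc1 (0.97, 0.92), the adhesion receptor gene Adgrf1 (0.97, 0.90), the Eph receptor gene Ephb6 (0.94, 0.78), the transcription factor gene Elk4 (0.93, 0.83) and the small GTPase gene Rab31 (0.93, 0.78). Adgrf1 was 0.597 to 3.69 FPKM in adjacent and 4.1 to 15.2 FPKM in tumour libraries, with ΔIEC adjacent 3 and flox adjacent 1 as its highest adjacent libraries, as for Clca4b. For Clca4a they included the small GTPase gene Rab20 (0.98, 0.92), the actin-severing Dstn (0.95, 0.83), Prelid3b (0.95, 0.80) and cytochrome c, Cycs (0.94, 0.82).

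For the other 3 members the same correlations lay between 0.77 and 0.94. Clca3a2 was most like Sp140 (0.80, 0.73), Rcbtb1 (0.79, 0.86), Cdkn2d (0.79, 0.76), Rpain (0.79, 0.70) and Stom (0.79, 0.77). Clca3a1 was most like Sp140 (0.81, 0.84), the class II antigen presentation genes H2-Aa (0.80, 0.81) and H2-Eb1 (0.77, 0.76), Uvrag (0.78, 0.85) and Cdip1 (0.77, 0.81). Clca3a1 had a correlation of 0.86 with Clca3a2 and of 0.90 with Clca3b, and these 3 share sequence. For Clca2 the list was Usp20 (0.94, 0.91), Pla2g4c (0.84, 0.81), Pigm (0.83, 0.82), Tent4b (0.81, 0.81) and Gsdmc2 (0.80, 0.85), and all 5 were highest in ΔIEC adjacent 1, as Clca2 was. Pla2g4c was 181.1 FPKM in that library and 0.394 to 25.8 FPKM in the other 11.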

How the data were processed

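RNA of dissected colon tumours and adjacent tissue was sequenced from strand-specific TruSeq libraries, per the labels. The deposited values are log2(FPKM + 1) per transcript; FastQC, STAR 2.5, Cuffnorm and GRCm38 are named in the submitters' processing notes, without roles, settings, annotation or library scaling. Of 123062 transcripts, 118004 (95.9%) matched GENCODE M21. Unmatched transcripts held 4.36% to 7.44% of a library's FPKM and were left out. The logarithm was undone and FPKM added up per gene.

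limma 3.58.1 (R 4.3.3; eBayes with trend and robust) was fitted to log2(FPKM + 1), a scale that understates changes of low genes, over 16970 genes with 1 mean for each of the 4 groups of 3. Benjamini-Hochberg adjustment ran over all genes of a contrast, with calls below 0.05. The labels do not say that replicates are separate mice, so p-values measure the spread between libraries. The members and lists were chosen with earlier results of these data known. Named genes are all cluster genes, the 5 genes most like each member, up to 4 genes of each list by mean FPKM, the 3 largest rises and falls of the colonocyte and chloride lists, and called neighbours; genes named besides were chosen after their values were seen. Alternatives were a pseudocount of 0.1, other filters, other scalings, other fits, blocks and leaving out each library. Some genes that the rule for named genes takes, and 1 sequence, are not reported here.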

Additional observations from a re-analysis of the deposited data

How the results depend on the processing

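The 15 genotype and interaction tests of the 5 genes were each repeated under 20 to 22 alternatives, and 0 of these repeats were called, with adjusted p between 0.491 and 1 in limma. Clca4b stayed higher in tumours, by 2.56 to 4.15 (flox) and 3.16 to 5.02 (ΔIEC) with each library left out in turn, and Clca4a lower, by -2.67 to -1.82 and -1.79 to -1.09. Rescaling on protein-coding genes, with only those tested, gave a median over them of 0.40 in flox and 0.27 in ΔIEC tumours. Of the calls, 80.0% and 76.7% were then higher, against 45.7% and 47.3% over all tested genes without rescaling. Clca4b was then at 3.87 and 4.18 and Clca4a at -1.77 and -1.17. The rescaling turned the sign of Clca2 in flox tumours (0.11) and of Clca3a2 (0.29) and Clca3a1 (0.01) in ΔIEC tumours. It also turned that of Clca4b by genotype in adjacent tissue (0.05). Quantile normalization turned the last to 0.02 and Clca3a2 in ΔIEC tumours to 0.11. The most abundant transcript alone gave Clca2 0.07 in flox tumours, and leaving out each library gave it -0.44 to 0.18. A pseudocount of 0.1 gave Clca4c-ps 0.18 by genotype in tumours. Calls by genotype in tumours were 8 with no filter and 1 with only the groups compared, which gave 2564 calls in ΔIEC tumours.

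Leaving out each library gave 0 to 299 calls by genotype in adjacent tissue (299 without ΔIEC adjacent 1), 0 to 3 in tumours, 0 to 1 for the interaction, 3891 to 6725 in flox tumours (fewest without flox adjacent 2) and 2910 to 5086 in ΔIEC tumours (fewest without ΔIEC tumour 1). Clca4b ranged from -1.16 to 0.70 by genotype in adjacent tissue, -0.29 to 0.94 in tumours and -0.28 to 1.59 in the interaction. In adjacent tissue Clca2 ranged from -0.15 to 1.26, Clca4a from -0.19 to 0.33 and Clca4c-ps from 0 to 0.27. In tumours Clca3a2 ranged from -0.60 to 0.21, Clca1 from -0.57 to 0.60 and Clca4c-ps from -0.67 to 0.73. Clca4c-ps ranged from -0.81 to 0.59 in the interaction, -0.14 to 1.17 in flox and -0.19 to 0.84 in ΔIEC tumours. The cause was not tested.

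With the title number as a replicate block, 5387 genes were called in flox and 4115 in ΔIEC tumours, and 0 by genotype; with the description code as a replicate block, 6286 and 5060. Deviations of same-coded libraries correlated between -0.192 and 0.17, so the numbers were not taken as pairs. With a filter at an FPKM of 5, Clca2, Clca3a1 and Clca4c-ps were not tested, and a fit to only the groups compared gives no interaction. FPKM values hold no depth, which limits what can be said of Clca2 and Clca4c-ps.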
